A study of Mus musculus with 27 samples.

Results

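The 10 genes described here encode giant cytoskeletal linkers and microtubule-associated proteins and were followed in the cortex of 5xFAD mice after injection of a retromer stabiliser. They are macf1, dst, map1a, map1b, map2, ank2, ank3, sptbn1, syne1 and akap9, written here in lower case as in the deposited table, which lists 26264 gene symbols. All 10 were found by symbol and all 10 passed the filter on low values, a mean of at least 1 FPKM (fragments scaled by transcript length and by the total of the library). The 10 genes were chosen by earlier results of these same data in which R55 was set against vehicle, so that contrast is given as a description and no significance is read from it. Female 5xFAD/C57BL6 mice aged 16 weeks carry transgenes that model familial Alzheimer's disease and served as the amyloid model, and no wild-type mice are part of the comparison. R55 and R33 are thiophene thioureas made to stabilise the retromer, and each was injected once on 1 side, as 500 nL at 10 mM, into the lateral parietal associative cortex. Vehicle mice received cyclodextrin and DMSO in saline. RNA came 24 h later from a block of about 1 cubic mm of cortex around the injection site and from the matching block of the other hemisphere. The libraries used here came from 14 mice, 4 given vehicle (8 libraries), 5 given R33 (9 libraries) and 5 given R55 (10 libraries), against 6 mice per group named in the methods of the study. Mouse AE, given R33, had its injected hemisphere only.

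Plakins such as macf1 and dst are very long proteins that tie microtubules to actin and, in some isoforms, to intermediate filaments. The products of map1a, map1b and map2 bind along neuronal microtubules, with map2 confined mostly to dendrites and map1b most abundant in growing axons. Ankyrins and spectrins form the membrane skeleton below the axonal membrane, where ank3 organises the axon initial segment, ank2 lines the axon and sptbn1 supplies a beta spectrin. The product of syne1 (nesprin-1) spans the outer nuclear membrane and links the nucleus to the cytoskeleton, and akap9 encodes a scaffold of the centrosome and Golgi that anchors protein kinase A.

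The genes lie on 8 chromosomes of GRCm39, the build of the alignment, and each covers a long stretch. The 3 loci of the microtubule-associated proteins are map1a at chr2:121120071-121141313 (plus strand), map1b at chr13:99557954-99653137 (minus strand) and map2 at chr1:66214327-66481746 (plus strand). The longest locus is ank3 at chr10:69234603-69863268 (plus strand), and the largest number of exons in 1 GENCODE transcript, 146, belongs to syne1 at chr10:4970266-5501482 (minus strand). The plakin loci are macf1 at chr4:123243384-123581331 (minus strand) and dst at chr1:33946918-34347742 (plus strand). The others are ank2 at chr3:126715261-127292999 and sptbn1 at chr11:30049394-30218191, both on the minus strand, and akap9 at chr5:3978054-4131310 on the plus strand. What the members share most plainly is transcript length. The length by which each was divided, recovered from the FPKM, ran from 10022 bp for map2 to 31327 bp for syne1, with a median of 12008 bp. Over the 12976 tested genes the median was 3149 bp, and 2.52% were at least as long as the shortest member. This length is called transcript length here. For every member except macf1, map1b and akap9 it exceeded the longest GENCODE transcript (28591 bp for syne1), so it need not be that of a single annotated transcript.

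Start sites differ between and within the members, and a single FPKM per gene adds their transcripts together. RefSeq promoters (table of GRCm38.p6) were found for 9 of the 10 genes, with 16 start sites in all, 4 of them in ank2, 3 in syne1 and 2 each in dst and sptbn1. None was in the table for ank3. All 16 upstream stretches of 250 bases matched GRCm39 letter for letter at 1 place. The microtubule-associated genes and both dst starts are shown, since dst has a start rich in CG and another that is not, while the 3 genes that bind along microtubules each have a single, CG-rich start. Each line gives up to 100 upstream bases that end before the first annotated exon base, 5′ to 3′ on the gene's strand. Capitals mark GGGCGG (the GC box), TATAAA (the TATA box) or CCAAT on either strand, and neighbouring matches can overlap.
map1a: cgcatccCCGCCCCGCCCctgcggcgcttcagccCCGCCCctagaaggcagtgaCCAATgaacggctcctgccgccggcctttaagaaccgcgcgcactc
map1b: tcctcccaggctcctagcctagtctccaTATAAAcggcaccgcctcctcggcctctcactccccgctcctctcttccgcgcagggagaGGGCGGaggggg
map2: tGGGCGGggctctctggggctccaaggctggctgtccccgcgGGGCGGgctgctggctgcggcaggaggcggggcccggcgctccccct
dst, start 1: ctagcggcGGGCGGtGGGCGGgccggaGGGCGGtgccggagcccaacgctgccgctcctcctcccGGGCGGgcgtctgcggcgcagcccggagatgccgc
dst, start 2: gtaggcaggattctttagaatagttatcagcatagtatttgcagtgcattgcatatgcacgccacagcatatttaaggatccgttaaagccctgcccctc

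In GRCm39 these stretches are chr2:121119971-121120070 for map1a, chr13:99653138-99653237 for map1b, chr1:66214238-66214326 for map2, and chr1:34050576-34050675 and chr1:34199241-34199340 for the dst starts. The full stretches can include bases at or beyond the first annotated exon base, and the values below keep them. Such bases numbered 161 in map2, 132 in akap9, 250 in ank2 start 1 and 235 in ank2 start 4. Over the full 250 bases, G and C made up 66% of the map1a stretch, 66.4% of map1b and 81.2% of map2. They made up 68.8% of the first dst stretch and 45.2% of the second, and macf1 had the lowest content at 38.4%. The median was 55.4% for the members' 16 stretches and 52.4% over all 32851 promoters of the table. GGGCGG or its complement was present upstream of 7 of the 16 member starts, in 7 genes, and of 32.7% of all promoters. TATAAA was present at 3 of the 16 starts (ank2 start 4, map1b and syne1) and at 12.4% of all promoters, and CCAAT at 5 of 16 and at 33.8%. CACGTG and TGACGTCA, the core of a cAMP response element, were in none of the 16 stretches and in 6.02% and 1.55% of all promoters. The members' stretches thus share no single one of these motifs.

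Libraries held 15932198 to 38077032 fragments on genes. The 10 members together took between 0.484% and 0.859% of the fragments of a library, with a median of 0.706%. The smallest number of fragments behind any member's value was 948 (akap9), and map1a had at least 31587 in every library. Neuronal markers (Rbfox3, Snap25, Syt1, Slc17a7, Gad1 and Gad2) summed to between 2221 and 3109 FPKM per mouse, as in a neuron-rich tissue, while 4 haemoglobin genes were listed at 0 in every library. In bulk tissue, fewer cells of a type and less RNA per cell cannot be told apart.

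The order of the members' levels per length was read from the vehicle mice, each taken as the mean of its hemispheres. The highest level was map1a at 161 ± 15.6 FPKM (SD, n = 4 mice), followed by map2 at 141 ± 16.3, and the ranges of the pair overlapped, with map1a above map2 in 3 of 4 mice. Next came map1b at 88.9 ± 12 and sptbn1 at 88.8 ± 3.93, which could not be ordered, with map1b higher in 2 of 4 mice. Ank2 at 48.9 ± 3.28 and ank3 at 29.2 ± 1.95 stood apart from each other and from their neighbours in all 4 mice. Below them, syne1 at 15.5 ± 1.32, macf1 at 13.9 ± 0.385 and dst at 13 ± 1.14 overlapped from each to the next, and akap9 was lowest at 6.12 ± 0.632. Against all tested genes these levels reached from the 37.4th percentile (akap9) to the 97.8th (map1a). Over the 27 libraries, akap9 and map1b varied most, with coefficients of variation of 23% and 21.8%, and sptbn1 and ank2 least, with 12.2% and 12.3%.

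**Figure D1:**
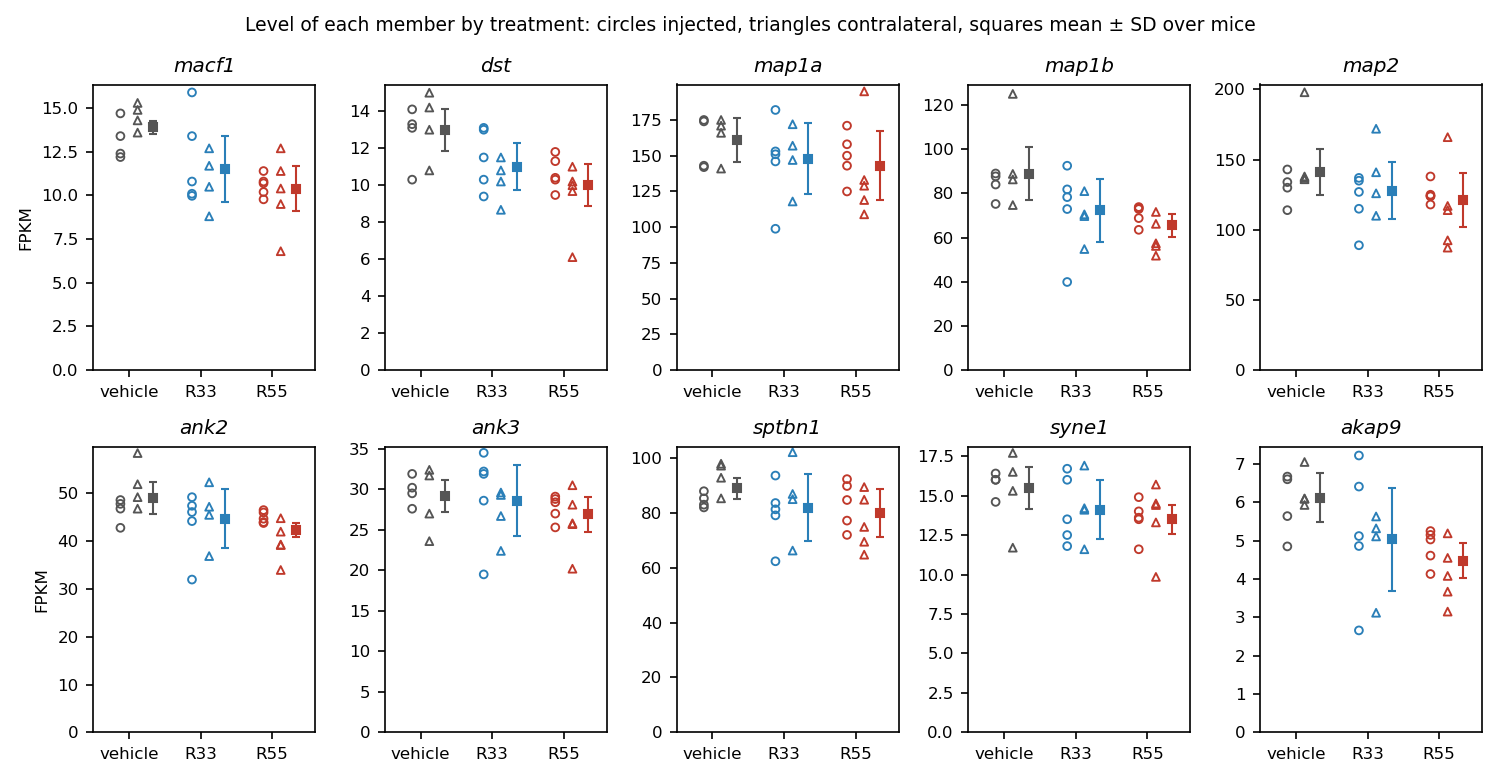
FPKM of each gene (y axis, from 0) in every library by treatment, with circles for the injected and triangles for the contralateral hemisphere and squares for the mean ± SD over mice (4 vehicle, 5 R33, 5 R55). Map1b lies between 57.7 and 72.5 FPKM in the R55 mice and between 80.8 and 107 FPKM in the vehicle mice, while ank3 overlaps between treatments.

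Taken as the mean of the hemispheres of each mouse, the plakins were lower in every R55 mouse than in any vehicle mouse. For macf1 the vehicle mice J, M, L and AH gave 14.1, 13.8, 13.4 and 14.2 FPKM. The R33 mice K, AE, O, N and AD gave 10.3, 10.8, 13.8, 13.1 and 9.39 FPKM, and the R55 mice P, AA, Q, R and AB gave 9.65, 11.4, 8.5, 11.7 and 10.6 FPKM. The vehicle mice thus lay within 1 FPKM of each other, all 5 R55 mice lay below them, and 4 of 5 R33 mice did. On the scale of log2(FPKM + 1), macf1 differed by -0.40 (SE 0.094) between R55 and vehicle and by -0.26 (SE 0.096) between R33 and vehicle.

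For dst the vehicle mice gave 12.4, 11.7, 13.7 and 14.2 FPKM in the same order. The R33 mice gave 10.5, 11.5, 11.6, 12.3 and 9.03 FPKM and the R55 mice 9.58, 10.8, 8.19, 10.7 and 10.9 FPKM. All 5 R55 mice again lay below the vehicle range, with mouse Q lowest, and 4 of 5 R33 mice did. The log2 difference of dst was -0.35 (SE 0.092) for R55 and -0.24 (SE 0.094) for R33. Of all tested genes, 1.41% had every R55 mouse below every vehicle mouse, and 5 of the 10 members did (macf1, dst, map1b, ank2 and akap9). Since the contrast chose the members, nothing is read from that count. No member had every R33 mouse below every vehicle mouse, where the share over all tested genes was 0.416%.

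Among the microtubule-associated genes, map1b showed the largest difference of all members and map1a and map2 smaller ones. Map1b measured 81.9, 80.8, 107 and 86.4 FPKM in vehicle mice J, M, L and AH. It measured 74.4, 81.8, 81.1, 76.9 and 47.3 FPKM in R33 mice K, AE, O, N and AD and 72.5, 67.5, 64.5, 57.7 and 65.6 FPKM in R55 mice P, AA, Q, R and AB. The R55 mice formed a narrow group below the vehicle mice, whereas the R33 mice lay near the lower edge of the vehicle range apart from AD. The log2 difference of map1b was -0.43 (SE 0.12) for R55, a ratio of 0.744, and -0.34 (SE 0.13) for R33.

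Map1a, the most abundant member, overlapped between treatments. Its R55 mice gave 138, 117, 139, 183 and 140 FPKM, so that mouse R lay above all vehicle mice (142 to 175 FPKM) and the other 4 below them. The log2 difference of map1a was -0.18 (SE 0.11) for R55 and -0.14 (SE 0.11) for R33. Map2 ran from 103 to 152 FPKM in the R55 mice and from 126 to 164 FPKM in the vehicle mice, with 4 of 5 R55 mice below the vehicle range. Its log2 differences were -0.23 (SE 0.12) for R55 and -0.14 (SE 0.12) for R33.

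In the membrane skeleton, ank2 separated the R55 mice from the vehicle mice in the mean of the hemispheres, and ank3 and sptbn1 did not. On the injected side alone ank2 overlapped, from 43.7 to 46.4 FPKM with R55 and from 42.7 to 48.5 FPKM with vehicle. On the contralateral side it ran from 33.9 to 44.7 FPKM with R55 and from 46.7 to 58.3 FPKM with vehicle. Ank2 measured 48.4, 44.7, 52.5 and 50.1 FPKM in vehicle mice J, M, L and AH and 42.9, 41.9, 40.2, 44.2 and 42.5 FPKM in the R55 mice. The highest R55 mouse (44.2 FPKM) and the lowest vehicle mouse (44.7 FPKM) lay close together, and 1 of 5 R33 mice (AD, 34.4 FPKM) lay below the vehicle range. The log2 difference of ank2 was -0.21 (SE 0.079) for R55 and -0.15 (SE 0.081) for R33. Ank3, the organiser of the axon initial segment, had the smallest differences of the members, -0.12 (SE 0.089) for R55 and -0.06 (SE 0.091) for R33. Its R55 mice ran from 23.6 to 29.7 FPKM and its vehicle mice from 26.6 to 31.3 FPKM, and 1 of 5 R55 mice lay below the latter. Sptbn1 ran from 68.3 to 88.5 FPKM with R55 and from 84 to 92.8 FPKM with vehicle, a log2 difference of -0.16 (SE 0.083), and 3 of 5 R55 mice lay below the vehicle range.

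The linkers of the nucleus and the centrosome differed in how far they separated. Akap9 measured 6.35, 5.39, 6.86 and 5.87 FPKM in vehicle mice J, M, L and AH. It measured 5.22, 4.86, 5.76, 6.42 and 2.89 FPKM in the R33 mice and 5.22, 4.11, 4.41, 4.58 and 4.09 FPKM in the R55 mice. All 5 R55 mice and 3 of 5 R33 mice lay below the vehicle range, and the R33 mouse AD was lowest of all 14. The log2 differences of akap9 were -0.38 (SE 0.12) for R55 and -0.27 (SE 0.12) for R33. Syne1 ran from 12.4 to 14.7 FPKM with R55 and from 13.8 to 17 FPKM with vehicle, with 3 of 5 R55 mice below the vehicle range and a log2 difference of -0.19 (SE 0.086).

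Set side by side, all 10 members had negative log2 differences for R55 against vehicle, from -0.43 to -0.12 with a median of -0.22. The median over all 12976 tested genes was 0.03, and 39.8% of them were lower. For the record, the count of members beyond the threshold for a call (an adjusted p under 0.05 in limma) was 0 of 10, beside 0.00771% of all tested genes, and it was 3 of 10 (macf1, map1b and akap9), beside 0.385%, without mouse AD, which enters this contrast only through the shared estimate of spread. Both counts come from the values that chose the members and are no test of them. The SEs above take both libraries of a mouse as independent, and with 1 value per mouse the SE ran from 0.092 (syne1 and ank2) to 0.15 (akap9), with 0.11 for macf1 and 0.14 for map1b. For R33 against vehicle, which uses the same vehicle libraries, all 10 differences were also negative, from -0.34 (map1b) to -0.06 (ank3), with a median of -0.14, or -0.05 without mouse AD. There the median over all tested genes was 0.02, 0% of them passed and no member did.

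R55 and R33 were given at the same dose and examined at the same time, so they can be compared directly, although the R55 libraries are those that chose the members. All 10 members were lower with R55 than with R33, and the 95% interval of every difference contained 0. Of all tested genes 46.6% were lower as well. Of the 317 others at least as long as the shortest member 82.3% were, with a median of -0.05. The members' log2 differences ran from -0.14 (macf1, 95% interval -0.32 to 0.05) to -0.04 (map1a, -0.25 to 0.18), with a median of -0.08. For map1b the difference was -0.09 (95% interval -0.33 to 0.15) and for akap9 -0.11 (-0.35 to 0.13). Over these 10 gene-wise comparisons every adjusted p was 1 in limma, adjusted over all tested genes, of which 0% passed. None passed at an unadjusted p of 0.05 either, and limma voom on the recovered fragments also called none. The intervals reach as low as -0.35 (akap9), so they do not show that the compounds act alike. Mouse AD weighed on the value. Without it the median was -0.17, no member passed adjustment and 2 of all tested genes did. At an unadjusted p under 0.05 in limma there were then 5 of 10 members, a count without a share over all tested genes. Nothing is read from that count, since the R55 libraries chose the members. Without R33 mouse N the median was -0.02. With 1 value per mouse the interval of macf1 was -0.35 to 0.08 and that of akap9 -0.41 to 0.18. The smallest adjusted p of any member was 0.379 over all alternatives.

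**Figure D2:**
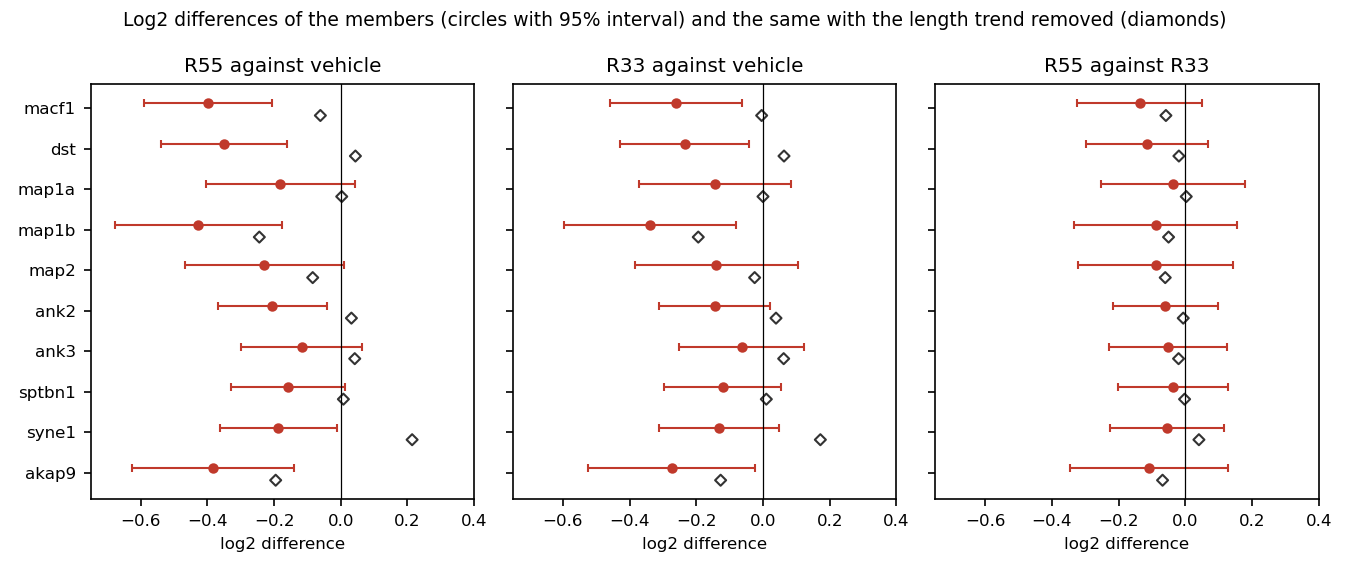
Log2 difference of each gene on the log2(FPKM + 1) scale (x axis) for each drug against vehicle and for the drugs against each other, as circles with the 95% interval, and as diamonds after the trend with transcript length was removed from each library. All circles lie below 0 in the 3 panels, and the diamonds of R55 against vehicle scatter on both sides of 0, from -0.24 (map1b) to 0.21 (syne1).

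Transcript length moved with these differences. Of the 317 other tested genes at least as long as the shortest member, 95% were lower with R55 than with vehicle, with a median log2 difference of -0.19. Of the 3453 tested genes under 2000 bp, 18.8% were lower, with a median of 0.09. For R33 against vehicle the shares were 90.9% and 20.7%, and for R55 against R33 82.3% and 41.2%. When a smooth trend of log2 values on length was subtracted in each library, the median of the members for R55 against vehicle became 0.005, with 4 of 10 below 0 (the same for R33 against vehicle), and that of the other long genes became -0.005. Map1b and akap9 were then lowest, at -0.24 (SE 0.079) and -0.20 (SE 0.074). Syne1, the longest member by the length used for FPKM, changed sign to 0.21 (SE 0.079), and macf1 became -0.06 and dst 0.04. Only map1b then had every R55 mouse below every vehicle mouse. No share over all tested genes stands beside that count, and nothing is read from it. For R55 against R33 the members' median became -0.02 with the length trend removed. There 8 of 10 members were below 0, beside 177 of the 317 other long genes. The trend is set by all genes of similar length, so its removal takes away anything that long genes share, and the part of length in the members' differences was not tested.

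**Figure D3:**
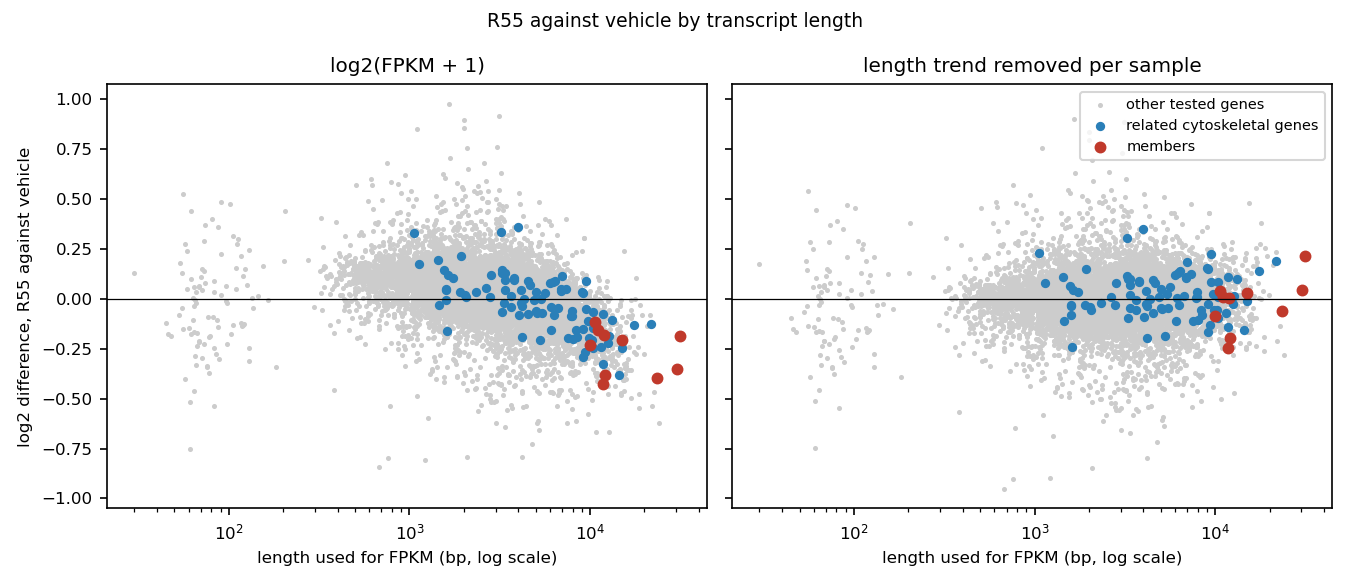
Log2 difference of R55 against vehicle (y axis) against the length used for FPKM in bp (x axis, log scale) for all 12976 tested genes in grey, 90 related cytoskeletal genes in blue and the 10 members in red, before (left) and after (right) the length trend was removed from each library. On the left the cloud slopes down towards long genes and the members lie at its lower right end, and on the right their median is 0.005.

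Mouse by mouse, the members and the other long genes were set beside genes under 2000 bp. Relative to the vehicle mean, the median log2 difference of the members was lowest in R33 mouse AD, at -0.49, where the other long genes had a median of -0.46 and genes under 2000 bp one of 0.30. Mouse Q followed with -0.35 for the members and -0.27 for the other long genes, then mouse AA with -0.32 and -0.19. Genes under 2000 bp were at 0.17 in Q and 0.14 in AA. The gap between long and short genes differed between mice. R33 mouse K was at -0.16 for the members, -0.05 for the other long genes and -0.03 for the short ones, and AE at -0.14, -0.09 and -0.01. R33 mouse N was at 0.06 for the members, -0.04 for the other long genes and 0.02 for the short ones, and vehicle mouse J at -0.04, 0.00 and 0.12. The 4 vehicle mice lay between -0.05 and 0.09 for the members. All 10 members were below the vehicle mean in mice P, AA, Q, AB and AD, and 7 of 10 were in R55 mouse R.

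**Figure D4:**
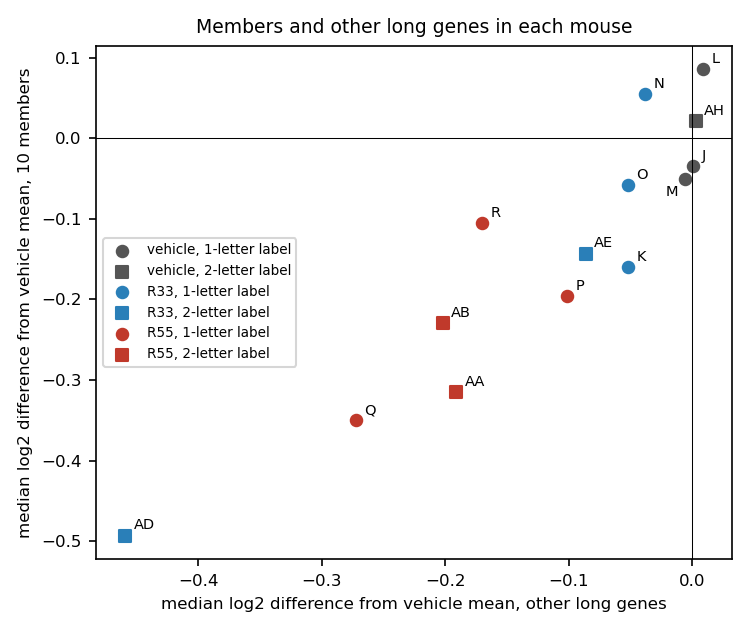
Median log2 difference from the vehicle mean in each of the 14 mice, for the 10 members (y axis) and for 317 other genes at least as long as the shortest member (x axis), coloured by treatment and with squares for mice with 2-letter labels. Mouse AD lies lowest on both axes, at -0.49 and -0.46, and the vehicle mice cluster around 0.

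The injected hemisphere was compared with the contralateral one, a contrast that did not choose the members. None of the 10 members passed, as did 0% of all tested genes, and 2 of 10 (map2 and sptbn1) were lower in the injected hemisphere. Log2 differences ran from -0.07 (map2, 95% interval -0.26 to 0.13) to 0.10 (dst, -0.06 to 0.25), with a median of 0.03 and an adjusted p of 1 for every member in limma. None of the 10 passed at an unadjusted p of 0.05 either. Without mouse Q the median was -0.007, and with the length trend removed -0.008, each with 6 of 10 lower. With the mouse as a replicate block, which pairs the hemispheres, the median was 0.03 and the smallest adjusted p was 0.899 (dst), again with 0% of all genes called. Within the 13 mice that had both hemispheres, the injected side was higher in 8 for map1b and akap9, in 7 for macf1, dst, map1a and ank3, in 6 for syne1, in 5 for map2 and ank2 and in 4 for sptbn1. No member took 1 side in all mice.

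The gap between hemispheres was compared between treatments, and no member passed adjustment. In the 5 R55 mice, map1b and akap9 were higher on the injected side in all 5, and map1a, map2, ank2 and sptbn1 in 4 of 5. In the 4 vehicle mice, ank2 and sptbn1 were lower on the injected side in all 4, by a mean log2 difference of -0.14 ± 0.12 and -0.14 ± 0.068 (SD). In the 4 R33 mice with both sides, map2 and sptbn1 were lower on the injected side in all 4. Every other member took both sides within each treatment. No share over all tested genes stands beside these counts, and nothing is read from them. The median log2 difference of the members between R55 and vehicle was -0.16 on the injected side and -0.39 on the contralateral side. The interaction of R55 with hemisphere, which estimates this gap, had a median of 0.25 over the members. It was positive for 9 of 10, the exception being syne1 at -0.05. Of all tested genes 58.3% were below 0 for this interaction, and of the 317 other long genes 10.1% were. The largest among the members were map2 at 0.37 (SE 0.23), map1b at 0.36 (SE 0.24) and ank2 at 0.32 (SE 0.15). Ank2 had an unadjusted p of 0.0432 and an adjusted p of 0.999 in limma, and 0% of all tested genes passed. With the mouse as a replicate block, which pairs the hemispheres, the differences were the same and their errors smaller, with an SE of 0.10 for ank2, 0.082 for sptbn1 (at 0.26) and 0.16 for map2. These 3 members had unadjusted p of 0.00685, 0.00691 and 0.0367 in limma, and the smallest adjusted p of any member was 0.806. Without the block, leaving out mouse AA, AB, AH, K, L, M or Q left no member at an unadjusted p under 0.05. The interaction draws on the R55 and vehicle libraries that chose the members, so nothing is read from its unadjusted p-values. The other long genes had a median interaction of 0.17, and after the length trend was removed the median of the members was 0.05.

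**Figure D5:**
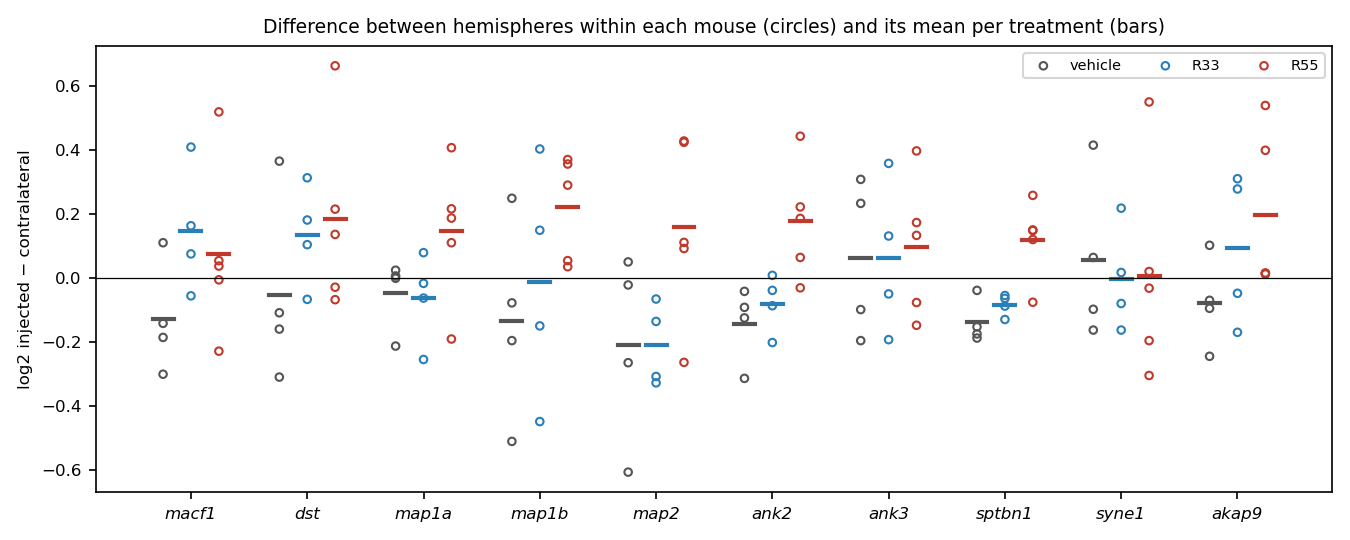
Difference between the injected and the contralateral hemisphere on the log2(FPKM + 1) scale (y axis) in each of 13 mice (circles), by gene and treatment, with the mean of each treatment as a bar. The R55 circles of map1b and akap9 all lie above 0, and the vehicle circles of ank2 and sptbn1 all lie below 0. So do the R33 circles of map2 and sptbn1, and every other set has circles on both sides of 0.

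Mice carried labels of 1 or 2 letters, and what the number of letters stands for is not given in the sources used here. Sptbn1 and akap9 were lower in the 5 mice with 2-letter labels than in the 9 with 1 letter, in a fit with treatment and hemisphere as covariates. That fit takes both libraries of a mouse as independent, although the label belongs to the mouse. The log2 difference was -0.26 (SE 0.053) for sptbn1, with an adjusted p of 0.00225 in limma, and -0.30 (SE 0.087) for akap9, with an adjusted p of 0.0195. Those 2 of 10 members compare with 19.1% of all tested genes, so the share of members called was near the background. The other members ran from -0.19 (map1a) to 0.05 (dst) and did not pass. The number of calls depended on the fit, among the members and among all 12976 tested genes. With the length trend removed 3 members passed, beside 3082 genes. With the correlation within mice modelled 1 member passed, beside 1345, and with 1 value per mouse 1 did, beside 741. In either hemisphere alone none did, beside 996 genes (injected) and 83 (contralateral). Without mouse AD 1 member passed, beside 1607, and without mouse AH 3 did, beside 1683. The median over the members was -0.126 with all mice and -0.019 without mouse AD. Nothing is read about the members from these changes. Within the 1-letter mice (3 per treatment), R55 minus vehicle had a median of -0.18 over the members and was negative for all 10, and R33 minus vehicle had a median of -0.03 and was negative for 8. Within the 2-letter mice (2 R55, 2 R33 and 1 vehicle) the medians were -0.35 and -0.37, with all 10 negative for both drugs.

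Related genes of the cytoskeleton, listed by function, were read for the same contrasts. Of 96 listed genes, 90 were tested, and none passed in limma for either drug against vehicle, between the drugs or between the hemispheres. For R55 against vehicle 47 of the 90 had negative differences, with a median of -0.01. They divided by length. All 14 related genes at least as long as the shortest member were lower with R55, with a median of -0.19, and 33 of the 76 shorter ones were, with a median of 0.02. After the length trend was removed, 7 of the 14 were below 0.

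The closest relatives of the members did not move as a block. Among the other plakins, plec (plectin) differed by -0.13 (SE 0.10) with R55 and evpl (envoplakin) by 0.09 (SE 0.062). Of 12 other genes of the spectrin skeleton 6 were lower, from sptan1, the alpha spectrin partner of sptbn1, at -0.20 (SE 0.062) to epb41l2 at 0.09 (SE 0.089). Sptan1 went from 137 ± 14.2 FPKM in vehicle mice to 119 ± 4.39 FPKM in R55 mice. Of 16 other microtubule-associated genes 8 were lower, from dclk2 at -0.19 (SE 0.092) to stmn1, the tubulin-binding stathmin, at 0.33 (SE 0.13). Of 9 plus-end genes 5 were lower, from apc at -0.18 (SE 0.14) to mapre1 at 0.05 (SE 0.064).

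The other partners of the members showed both directions as well. Of 8 genes of the nuclear envelope 4 were lower, from syne2, the paralogue of syne1, at -0.13 (SE 0.045) to lmna at 0.13 (SE 0.11). Of 13 centrosome and kinase-anchor genes 10 were lower, from akap11 at -0.26 (SE 0.11) to akap12 at 0.08 (SE 0.10). Of 9 motor genes 5 were lower, from dync1h1, the dynein heavy chain, at -0.38 (SE 0.11) to kif5a at 0.12 (SE 0.12). All 7 genes of the axon initial segment and ankyrin partners were lower, with kcnq3 lowest at -0.33 (SE 0.13) and a median of -0.24 that became -0.11 without the length trend. The tubulin and neurofilament genes lay mostly on the other side. Their medians were 0.05 and 0.24, and with the length trend removed -0.004 for the tubulins and 0.21 for the neurofilaments. Of 10 tubulin genes 1 was lower, tubb2a at -0.16 (SE 0.12), and tubb2b was highest at 0.21 (SE 0.16). All 4 neurofilament genes were higher, from nefl at 0.10 (SE 0.060) to nefh at 0.36 (SE 0.13).

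In the comparison of mouse labels 11 of the 90 related genes passed, 3 lower and 8 higher in 2-letter mice, beside 19.1% of all tested genes. These calls take both libraries of a mouse as independent, and over all tested genes the 2477 calls of that fit fell to 1345 once within-mouse correlation was modelled and to 741 with 1 value per mouse. The lower ones were akap1 at -0.19 (SE 0.043, adjusted p = 0.00374 in limma), sun1 at -0.31 (SE 0.089, adjusted p = 0.0184) and l1cam at -0.32 (SE 0.094, adjusted p = 0.0187). The higher ones were tuba1b at 0.29, tubb3 at 0.26, nefh at 0.32, ina at 0.19, lmna at 0.28, mapre1 and mapre3 at 0.15 and 0.16, and evpl at 0.13, with adjusted p from 0.00844 (tuba1b) to 0.05 (evpl, just under the threshold).

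The members varied together across the 14 mice. Over the 45 pairs of members, Pearson's r ran from 0.45 (dst with sptbn1) to 0.94 (ank2 with akap9), with a median of 0.73. These are descriptions over mice of 3 treatments that share the length trend, and after its removal the median r was 0.01, from -0.68 to 0.69. The plakin pair macf1 and dst had r = 0.90 before and 0.65 after, and map1b with akap9 0.89 and 0.69. The genes most like the members, by the correlation of their level with the mean standardised level of the members over 14 mice, were huwe1 (r = 0.973), wdfy3 (0.973), htt (0.965), vps13b (0.953) and pclo (0.952). All 5 are long as well, from 13219 bp (htt) to 22100 bp (pclo), and the 100 genes most like the members had a median length of 10937 bp.

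Markers of other cells were read beside the members. For R55 against vehicle no marker passed. The oligodendrocyte markers (5 of 5) and the astrocyte markers (4 of 4) had positive log2 differences, with medians of 0.10 and 0.11, and 3 of 6 neuronal markers were lower, with a median of 0.02. Of the microglial markers 1 of 4 was lower, with a median of 0.07, of the mural markers 2 of 3, with a median of -0.06, and of the precursor markers 2 of 2, with a median of -0.115. The 4 striatal markers (Drd1, Drd2, Adora2a and Ppp1r1b) were all lower, with a median of -0.29. Their summed level ran from 37.5 to 89.6 FPKM in vehicle mice, 37 to 121 in R33 mice and 31.9 to 49 in R55 mice. The 3 endothelial markers were lower too, with a median of -0.16, and summed to 26.5 to 53.1 FPKM with vehicle, 18.5 to 51.9 with R33 and 20.5 to 66.6 with R55. In the comparison of mouse labels all 3 endothelial markers passed, with a median log2 difference of -0.99 beside the calls of sptbn1 and akap9, and so did 3 of 4 microglial markers, with a median of 0.32, 1 astrocyte marker and 1 mural marker. The part of the makeup of the tissue block in the members' differences was not tested.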

How the data were processed

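Total RNA from both hemispheres was made into stranded poly(A) libraries, and the authors aligned them with HISAT2 (build GRCm39) and deposited 1 FPKM value per gene and library. The counting tool and annotation are not given in the sources used here. Of 32 libraries in the table, 27 were used and 5 are not used here. For each gene the length was the smallest at which every value was a whole multiple of 1 fragment within 0.01. Fragments followed from that length. All values (100.0%) met this by the choice itself, so that share is no check of the lengths. The 12976 genes whose mean reached 1 FPKM were tested on log2(FPKM + 1) in limma 3.58.1 (R 4.3.3), with treatment and hemisphere as additive factors, an intensity trend and Benjamini-Hochberg adjustment, calls at an adjusted p under 0.05. That fit treats both libraries of a mouse as independent, so SDs over mice and some SEs with 1 value per mouse are given too. The length trend is a lowess curve (span 0.3) of each library's deviations on log length. Hemispheres share an animal and are paired by its label: their deviations from group means correlated by 0.394 on average (-0.0787 to 0.648, 13 pairs). All members, the 5 genes most like them, and per related list every called gene or else the lowest and highest after R55 are named, and a few others (plakin and list examples, markers) were named after their values were seen. Some single genes are not reported here. The members and gene lists were chosen with earlier results of these data known. Alternatives were another pseudocount, filter and scaling, voom on recovered fragments, modelled correlation within mice, 1 value per mouse, each hemisphere, a label covariate, length trend removal and leaving out each mouse. Scripts were tested on simulated data. Coordinates are GENCODE M39.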

Additional observations from a re-analysis of the deposited data

Results flagged for a closer look

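Over 60 sets of libraries (10 genes in 6 groups of treatment and hemisphere), 5 held a library whose gap to its nearest neighbour was beyond Dixon's 95% critical value, and chance alone marks about 1 in 20. In the contralateral R55 group, dst was 6.11 FPKM in mouse Q with the others from 9.68 to 11, and map1a was 195 FPKM in mouse R with the others from 109 to 133. In the contralateral vehicle group, map2 was 198 FPKM in mouse J with the others from 136 to 138, and akap9 was 7.05 FPKM in mouse L with the others from 5.93 to 6.1. In the injected R33 group, ank2 was 31.9 FPKM in mouse AD with the others from 44.1 to 49.1.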

How the results depend on the processing

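The members' median log2 difference for R55 against vehicle was -0.217 and became 0.005 with the length trend removed, also with 1 value per mouse (0.005), and -0.390 in the contralateral hemisphere alone. When 1 mouse was left out it ran from -0.295 (without R) to -0.188 (without Q), in the libraries that chose the members, so its direction is no sign of stability. For the interaction of R55 with hemisphere the median of 0.248 became 0.051 with the length trend removed, with and without the mouse as replicate block. The replicate block changed no call between hemispheres. Members called for R55 against vehicle numbered 0 to 3 when 1 mouse was left out, 3 without AD, and are no test of the members. Members called between mouse labels numbered 2, against 3 with the length trend removed, 1 with the correlation within mice modelled, 1 with 1 value per mouse, 1 with 1 value per mouse and the length trend removed, 0 with either hemisphere alone, and 1 to 3 when 1 mouse was left out (1 without AD, 3 without AH). Calls over all tested genes changed as well, from 2477 to 3082, 1345, 741 and 1407 in that order of fits. They were 996 and 83 in the injected and the contralateral hemisphere alone, 1607 without AD and 1683 without AH. The cause of these changes was not tested. The median between hemispheres, 0.028, was -0.007 without Q and -0.008 with the length trend removed. No alternative gave a called member for R33 against vehicle, R55 against R33, the hemispheres or the interaction. Alternatives added after seeing the data were 1 value per mouse with the length trend removed and each treatment's libraries with the replicate block. Akap9 rested on the fewest fragments, 948 in the injected hemisphere of mouse AD.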
